A study of Mus musculus with 2 samples.

Results

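Nerve cells within the wall of the colon signal to muscle, gland and vessel with peptides and with nitric oxide. The 10 genes described here encode such signals: the peptide precursors Vip, Tac1, Adcyap1, Npy, Gal, Grp, Penk, Cartpt and Calcb, and the enzyme gene Nos1. They were chosen by name, with earlier results of these data known. Comparing Vip with the others was part of that choice. A gene counted where a probe set of the array was annotated to it alone, which held for all 10, each with 1 probe set, among 22180 genes measured in this way. RNA came from the colon of healthy ICR males, mice of an outbred stock aged 7 weeks, and was hybridised to whole-transcript arrays. The control array carried RNA from animals on a diet without psyllium, and the psyllium array RNA from animals on a diet with 10% psyllium, a viscous husk fibre, both for 5 days. How many mice gave RNA to each array and which layers of the colon were kept are not given in the sources used here. Each diet has 1 array, so no value below has a replicate check, an error or a p-value, and every difference is one between these 2 arrays.

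In the gut, vasoactive intestinal peptide and nitric oxide are the classical relaxing signals of inhibitory motor neurons, and many of these neurons make both. Neurons of the submucosa also release vasoactive intestinal peptide, there without nitric oxide, to drive secretion by the epithelium. Substance P and related tachykinins, from Tac1, excite muscle, and the enkephalins, from Penk, restrain transmitter release. An array of colon RNA reads RNA mainly from cell bodies in the wall, and sympathetic and spinal sensory fibres have their cell bodies elsewhere. It does not show which cells held the RNA, and fewer cells of a type and less RNA per cell cannot be told apart.

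Values are deposited normalised intensities, and a difference is log2 psyllium minus log2 control. A gene was past the intensity filter when its higher value reached 69.5, the median of that quantity over all genes, which left 11090 genes. The median difference over these genes was -0.04, with an SD of 0.33 between genes. As a reference for dim signals, the 1101 olfactory receptor genes, which serve smell and are mostly silent in other tissues, had a 95th percentile of intensity of 41.4 for the control diet and 44.1 for psyllium.

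Vip stood far from the other 9 genes. Its intensity was 170 with the control diet and 799 with psyllium, a difference of 2.23 or 4.70-fold. The psyllium value was the highest of the 10 genes on that array, whereas on the control array Penk and Grp were brighter than Vip. Among the 22180 genes Vip went from the 72.7th to the 95.7th percentile of intensity. Both of its values lay above the filter and above the olfactory receptor reference. Of the genes past the filter 7 had a larger positive difference, and Vip ranked 3 of 10229 when the lower of a gene's values also had to reach the filter. Predicted and clone-named genes were left out of the order of differences around Vip. The genes next above it were Actc1, Mfap5 and Ankrd1, of heart-type actin, microfibrils and stretched muscle, with differences of 2.27, 2.28 and 2.38. Their control values of 51.8, 42.0 and 44.7 lay below the filter. The genes next below Vip were the integrin gene Itga5 (2.23), the proteoglycan gene Vcan (2.18) and C1qtnf3 (2.16). Of these, Vcan had a control value below the filter, at 50.4. With 1 difference per gene this order is no likeness of pattern.

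**Figure D1:**
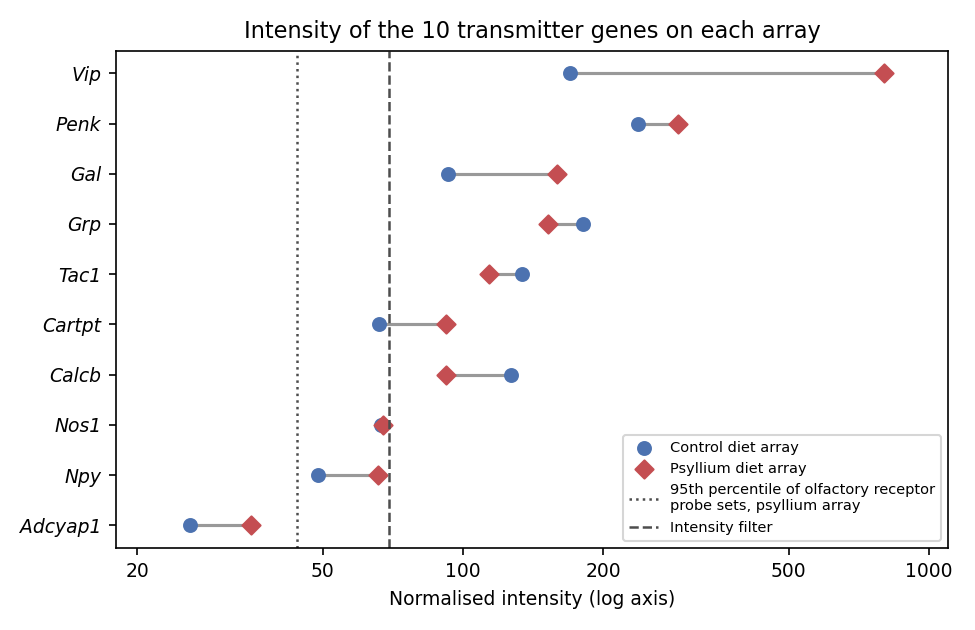
Normalised intensity (log axis) of each of the 10 genes on the control diet array (circles) and the psyllium diet array (diamonds), 1 array per diet; the dashed line is the intensity filter of 69.5 and the dotted line the 95th percentile of olfactory receptor genes on the psyllium array. Vip spans 170 to 799, and Adcyap1 lies left of the dotted line on both arrays.

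Of the 10 genes 7 passed the filter, and Nos1, Npy and Adcyap1 did not. Vip and Gal were higher with psyllium by at least 1.5-fold, beside 4.03% of all genes past the filter, and none of the 10 was 1.5-fold lower, beside 2.42%. Without the filter the same 2 genes were 1.5-fold higher, beside 3.42% of all 22180 genes, and again none was 1.5-fold lower, beside 2.8%. Vip alone was at least 2-fold higher, beside 1.06% of genes past the filter. The median difference of the 10 genes was 0.36, and that of the 9 without Vip was 0.29, with a range from -0.46 to 0.78. Vip exceeded the median of the other 9 by 1.94, and 8 of those 9 differed by less than 0.5 in either direction.

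The sequences just before the start sites are shown for the 3 genes past the filter with the highest differences, Vip, Gal and Cartpt, since Vip is a textbook target of cyclic AMP signalling. Each stretch holds the 120 bases before the annotated start, 5′ to 3′ on the gene's strand, from RefSeq (GRCm38.p6). Capitals mark TGACG, the core of the cyclic AMP response element, on either strand, its palindrome TGACGTCA, which contains that core on both strands, and the TATA box letters TATAAA on the gene's strand.
Vip, chr10:5639098-5639217, plus strand: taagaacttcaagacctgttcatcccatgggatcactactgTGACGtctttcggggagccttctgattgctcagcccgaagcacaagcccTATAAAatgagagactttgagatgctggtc
Gal, chr19:3414545-3414664, minus strand: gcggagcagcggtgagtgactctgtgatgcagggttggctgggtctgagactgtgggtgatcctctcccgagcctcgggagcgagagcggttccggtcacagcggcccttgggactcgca
Cartpt, chr13:99900684-99900803, minus strand: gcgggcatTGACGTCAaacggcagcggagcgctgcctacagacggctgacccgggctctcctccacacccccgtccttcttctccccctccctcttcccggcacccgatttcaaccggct
In Vip the core began at position -79 and a TATAAA at -30, counted from the start site, and in Cartpt the full palindrome began at -112. The printed stretch of Gal holds none of these letters. Over 250 bases before the start, 17.8% of all 32851 promoters in the table held TGACG, 1.55% held TGACGTCA and 7.59% held TATAAA. Of the 10 genes 7 had an entry, and 5 of these, Vip, Cartpt, Adcyap1, Tac1 and Nos1, held TGACG. A match describes the letters only. Gal held none of these letters over the 250 bases either. Any relation of the letters to the differences between the arrays was not tested.

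Among the relaxing signals Vip and Nos1 parted. Nos1, the neuronal nitric oxide synthase, read 66.8 with the control diet and 67.4 with psyllium, just under the filter. Its difference was 0.01, and it turned slightly negative after further quantile normalisation and after removal of the intensity trend. Vip exceeded Nos1 by 2.22 on the log2 scale. Adcyap1 encodes PACAP, the closest relative of vasoactive intestinal peptide, which shares its receptors. It read 26.0 and 35.0, below the olfactory receptor reference on both arrays, so its difference of 0.43 rests on dim values. It was the dimmest of the 10 genes on either array.

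Gal and Npy encode galanin and neuropeptide Y, peptides found in secretomotor and other neurons of the submucosa. Gal read 92.9 with the control diet and 159 with psyllium, a difference of 0.78 or 1.71-fold. Both values lay above the filter, and 230 genes past the filter (2.07%) had a larger positive difference. Npy read 48.7 and 65.8, a difference of 0.43, with both values above the olfactory receptor reference but below the filter. Vip exceeded Gal by 1.46.

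The remaining 5 genes differed by less than 1.5-fold, 2 of them upward and 3 downward. Penk, the precursor of the enkephalins, was the brightest of the 10 genes on the control array, at 237, and read 289.7 on the psyllium array, a difference of 0.29. Cartpt, the precursor of the CART peptides of myenteric neurons, read 65.9 and 91.8, a difference of 0.48. It passed the filter through its psyllium value alone. Tac1 read 134 and 114, a difference of -0.24. Grp, which encodes gastrin-releasing peptide, a stimulant of muscle and secretion, read 181 and 152, a difference of -0.25. Calcb encodes the form of calcitonin gene-related peptide made by sensory neurons of the gut wall. It read 127 and 91.8, a difference of -0.46, the lowest of the 10. The signs of these 5 differences were the same under each scaling tried.

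**Figure D2:**
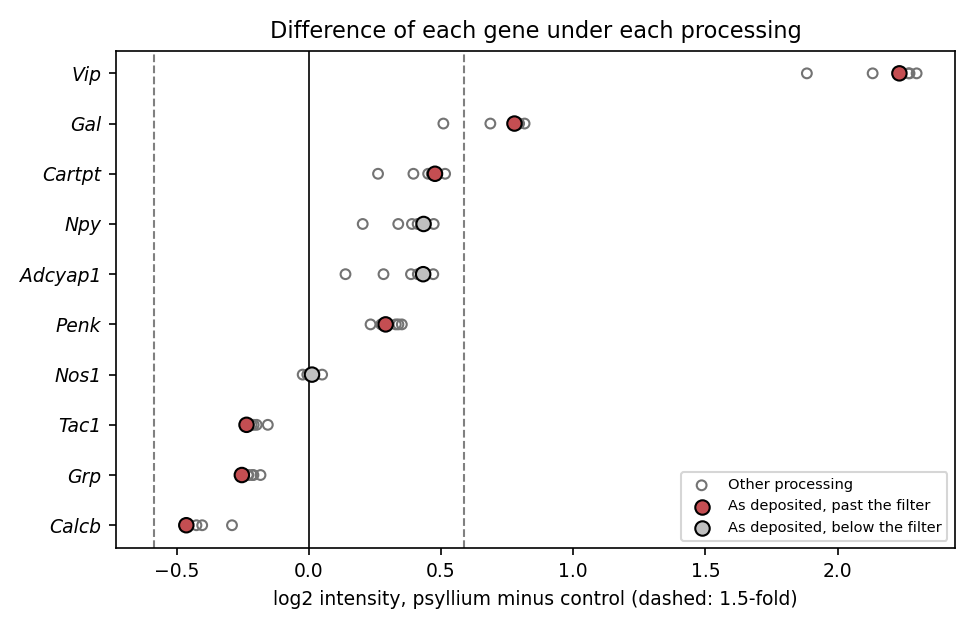
Difference, log2 psyllium minus log2 control, for each of the 10 genes; filled points are the deposited values, red where the gene passed the filter and grey where it did not, and open points are the same gene under other processing. Dashed lines mark 1.5-fold; Vip lies far to the right of the others under every processing shown, and 1 open point of Gal lies inside the line.

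By intensity the order on the control array ran Penk, Grp, Vip, Tac1, Calcb, Gal, Nos1, Cartpt, Npy and Adcyap1. On the psyllium array it ran Vip, Penk, Gal, Grp, Tac1, Cartpt, Calcb, Nos1, Npy and Adcyap1. Gal, Vip and Cartpt stood higher in the psyllium order than in the control order, Calcb, Grp, Penk, Tac1 and Nos1 stood lower, and Npy and Adcyap1 kept their places. Probe sets bind with unequal strength, so this is an order of signals and not of transcript numbers. Without replicates, neighbours as near as Cartpt and Calcb on the psyllium array, both at 91.8, have no order.

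**Figure D3:**
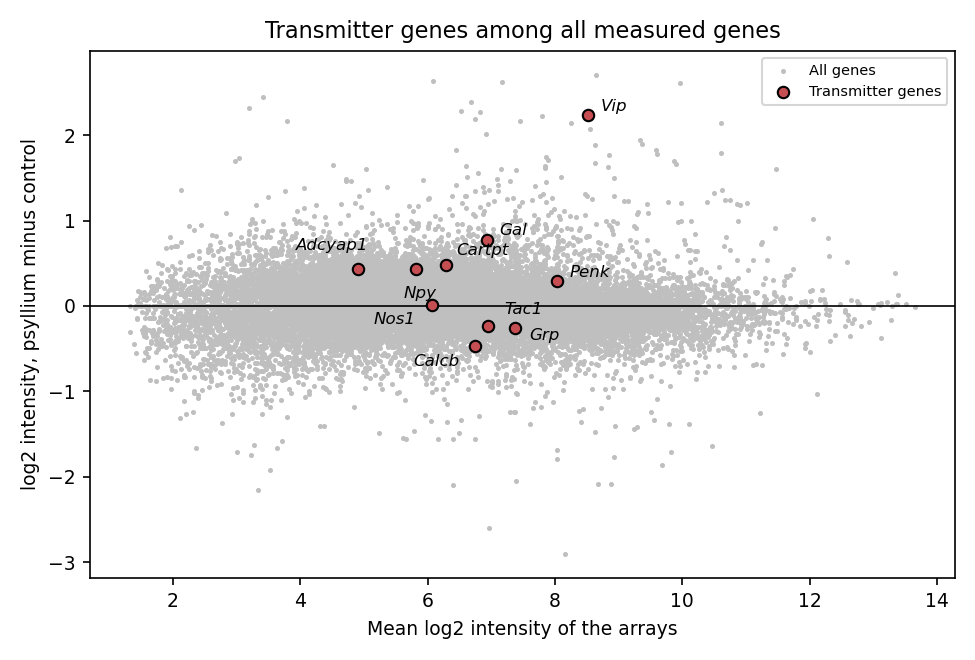
log2 difference (psyllium minus control) against the mean log2 intensity of both arrays for all 22180 genes (grey) and the 10 transmitter genes (red). Vip lies above the bulk of genes of like brightness at 2.23, while the other 9 lie between -0.46 and 0.78.

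Receptors and effectors of these signals differed little as a list and in both directions. Of 22 genes listed 21 were measured and 12 were past the filter. Of these 12, 1 was at least 1.5-fold higher, beside 4.03% of all genes past the filter, and none was lower, beside 2.42%. The median difference of the 21 was 0.17, beside -0.0025 over all 22180 genes, and that of the 12 was 0.16, beside -0.04 over all genes past the filter. The receptors for vasoactive intestinal peptide and PACAP went opposite ways. Vipr1, found mainly on epithelium in the gut, read 539.7 and 370.4, a difference of -0.54. Vipr2, known from smooth muscle, read 103 and 150.2, a difference of 0.55, and the PACAP receptor gene Adcyap1r1 differed by 0.17. Both Vipr1 and Vipr2 thus lay just short of 1.5-fold.

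The targets of nitric oxide in muscle were each brighter on the psyllium array. On that array all 10 smooth muscle markers were also at least 1.5-fold higher, beside 4.03% of all genes past the filter. Their median difference was 1.31. The part of these markers in the values that follow was not tested. The subunits of its receptor guanylyl cyclase, Gucy1a1 and Gucy1b1, read 267 and 369 and 283 and 376, differences of 0.46 and 0.41. Prkg1, the kinase that cyclic GMP activates to relax muscle, read 104 and 158, 1.52-fold higher, and was the 1 gene of the list past 1.5-fold. Among tachykinin receptors Tacr2 differed by -0.11, and Tacr1 differed by 0.58 below the filter, with values of 41.8 and 62.3. Tacr3 (0.23), the galanin receptor Galr2 (0.24) and the opioid receptors Oprm1 and Oprk1 were below the olfactory receptor reference on both arrays, and Oprm1 had the same deposited value, 31.5, on each. The other receptor genes were Galr1 (-0.13), Npy1r (0.24), Npy2r (0.42), Npy4r (-0.19), Npy5r (0.11), Grpr (-0.09), Oprd1 (0.23), Calcrl (0.16) and Ramp1 (0.03), all as log2 differences. Calcrl and Ramp1 together form the receptor for calcitonin gene-related peptide.

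Genes that cut and store peptides, and genes of other transmitters, did not share the difference of Vip. Of 11 measured prohormone processing and granule genes 8 were past the filter, with a median of 0.09 over the 8 and 0.05 over the 11. Of the 8 genes 1 was 1.5-fold higher, beside 4.03% of all genes past the filter. That gene was Pam, which amidates the ends of many peptides, vasoactive intestinal peptide among them, with 493 on the control array and 770.3 with psyllium (1.56-fold). Pam is also made outside neurons. The convertase gene Pcsk1 differed by 0.29, and the granule gene Chgb, the brightest of the list, by -0.06. Of 22 other transmitter genes 8 were past the filter. None of these was 1.5-fold higher, beside 4.03% of all genes past the filter, and 2 were 1.5-fold lower, beside 2.42%. The median was -0.02 over these 8 and 0.10 over all 22. The 2 lower genes were Sst, somatostatin, at 676 and 346 (a difference of -0.96), and Nmu, neuromedin U, at 84.1 and 51.0 (-0.72). Chat, which makes acetylcholine, the main excitatory transmitter of these neurons, read 36.6 and 34.5, below the olfactory receptor reference on both arrays.

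Markers of neurons as a class were nearly level between the arrays. Of 15 measured neuron markers 9 were past the filter. None was 1.5-fold higher or lower, beside 4.03% and 2.42% of all genes past the filter. Over the 15 the median was -0.10, and the differences ran from -0.52 to 0.17. Their summed intensity was 1442 with the control diet and 1326 with psyllium. Snap25, of the vesicle fusion machinery, read 272 and 190.2, the lowest difference of these markers (-0.52). Stmn2, a regulator of axonal microtubules, read 204 and 190.4. The difference of Vip exceeded the median of these markers by 2.33. The 7 measured glia markers had a median of 0.00 and differences from -0.46 to 0.36, with 3 past the filter. None was past 1.5-fold, beside 4.03% higher and 2.42% lower over all genes past the filter. Their summed intensity was 2434 and 1857, of which 2126 and 1547 came from Erbb3, a gene that epithelium also uses. S100b had the same deposited value, 27.0, on both arrays, below the olfactory receptor reference on each. The glia median of 0.00 is the difference of S100b and so rests on dim values.

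The differences of other cell types' markers stood beside that of Vip as follows, and their part in its difference was not tested. All 10 smooth muscle markers were higher with psyllium by at least 1.5-fold, beside 4.03% of all genes past the filter. Their median was 1.31 and their summed intensity 11294 and 27219.9. Actg2 (2.14), Synm (1.88), Des (1.79) and Tagln (1.66) had the highest differences among them, each below that of Vip (2.23) in the deposited values. Without replicates, differences as near as those of Vip and Actg2 have no order. All 10 epithelium markers had negative differences in the deposited values, with a median of -0.25 and a summed intensity of 24079.8 and 20741. Krt18, Krt8 and Epcam turned positive under at least 1 other scaling, which left 7 to 9 negative. None of the 10 was past 1.5-fold, beside 4.03% higher and 2.42% lower over all genes past the filter. The brightest, Lgals4 and Krt8, differed by -0.18 and -0.03. Interstitial cells, which relay inhibitory nerve signals to muscle, had 6 markers, all past the filter. None of the 6 was past 1.5-fold, beside 4.03% higher and 2.42% lower over all genes past the filter. Their median was 0.27 and their summed intensity 2001 and 2372. Of the 6 differences 4 were positive and 2 negative, from -0.33 to 0.56. The brightest, Kit and Pdgfra, differed by 0.38 and 0.32.

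Enteroendocrine cells and lymphocytes can also make peptides of this kind. The 10 enteroendocrine markers had a median of 0.02, which turned negative (-0.01) only with a pseudocount of 64. The median over the 7 past the filter was -0.14. Of the 10 differences 5 were positive and 5 negative, from -0.96 to 0.44. Sst, already counted above among other transmitter genes, was the 1 past 1.5-fold, and was lower, beside 2.42% of all genes past the filter. The summed intensity was 5169.9 and 4676. Of 6 T and innate lymphoid markers 2 past the filter, Cd3e (-1.28) and Cd3g (-0.84), were at least 1.5-fold lower, beside 2.42% of all genes past the filter. Cd8a (-0.65), below the filter, was also at least 1.5-fold lower, beside 2.8% of all genes without the filter. The median of the 6 was -0.58, and the summed intensity was 603 and 374. The 6 mast cell markers were all below the filter, with a median of -0.19 and a summed intensity of 120.1 and 102. All but Cpa3 lay below the olfactory receptor reference on both arrays, and Cpa3 did so on the psyllium array. This median and sum thus rest on dim values. The brightest, Cpa3 and Ms4a2, read 44.5 and 34.0 and 28.1 and 23.6.

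**Figure D4:**
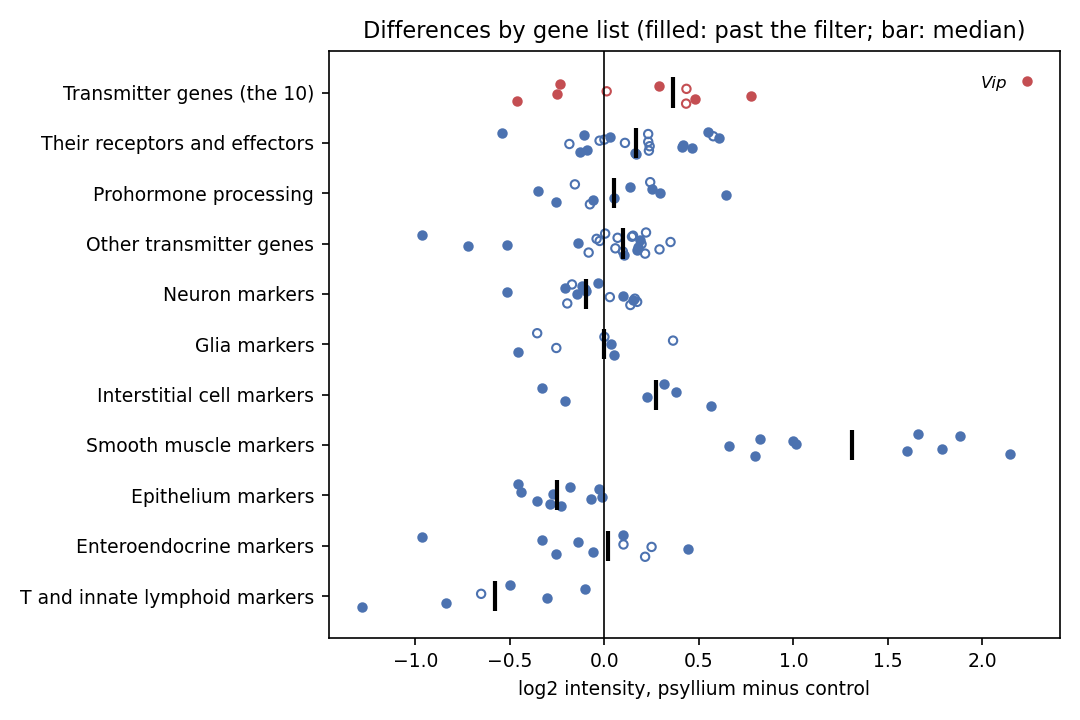
log2 difference (psyllium minus control) of every measured gene in each list, 1 point per gene, filled where the gene passed the intensity filter; vertical bars are list medians. Vip at 2.23 lies to the right of every other point, the smooth muscle markers have a median of 1.31, and the neuron markers lie between -0.52 and 0.17.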

How the data were processed

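The deposited table holds normalised probe-set intensity values on a linear scale for 41345 probe sets. The submitters' processing notes name RMA and Affymetrix Expression Console and give no version. Whether the values are antilogarithms of RMA output, and the genome build, are not given in the sources used here. If the arrays were equalised, differences are relative to the bulk of transcripts. The deposited values were converted to log2 with no pseudocount, as all were above 0.

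Gene names came from the platform annotation held by GEO and were updated through RefSeq (GRCm38.p6). Of the probe sets 23521 named 1 gene, 1814 several and 16010 none here. None that named several included one of the 10 genes. A gene with more than 1 probe set was read from its brightest by mean. Python 3.11.15, pandas 2.3.3 and statsmodels 0.14.6 were used. The calculation was tested on simulated data with large differences set in bright genes, which says nothing about dim genes or small differences. With 1 array per diet no test was made, and the number of arrays limits the precision.

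The genes and lists were chosen with earlier results of these data known. Besides the 10 genes, text names up to 4 genes of a list past the filter and 1.5-fold, otherwise the 2 brightest, and every receptor of the 10. Chat, Chgb, Pcsk1, S100b, Krt18, Epcam, Cd8a and all genes named under other observations were named after their values were seen. The olfactory receptor reference was chosen then too. Alternatives were the mean of probe sets, further quantile normalisation, centring, removal of the intensity trend (lowess, fraction 0.3), pseudocounts of 16 and 64, and other filters.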

Additional observations from a re-analysis of the deposited data

How the results depend on the processing

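No paired analysis was possible because each diet has 1 array, and none could be left out. The difference of Vip lay between 1.88 and 2.30 under all settings of scaling, trend and pseudocount. Its excess over the median of the other 9 genes lay between 1.74 and 1.95. Each of the 10 genes had 1 probe set, so taking the mean of probe sets could not change them. Centring moves all genes alike and could not change that excess. With a pseudocount of 64, added after the data were seen, Gal differed by 0.51 and 1 of the 10 genes was at least 1.5-fold higher. The median difference of the 10 genes ranged from 0.17, with that pseudocount, to 0.40. Without Vip, 1 gene, Gal, was 1.5-fold different. Among all probe sets in place of genes, Vip's psyllium value was at the 95.9th percentile. Nos1 ranged from -0.02 to 0.05 and so had no settled direction, nor had the glia (-0.04 to 0.04) and enteroendocrine (-0.01 to 0.06) medians. Receptors past 1.5-fold numbered 2 after centring and 0 with either pseudocount. Of other transmitter genes 1 in place of 2 was 1.5-fold lower with either pseudocount or when the lower value had to pass the filter, and with a pseudocount of 64 the count of processing genes fell from 1 to 0. The cause was not tested.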

Other observations

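Growth factors that maintain enteric neurons, and their receptors, were looked at as a list made after the values above were seen. Of 20 measured genes 11 were past the intensity filter, with a median difference of 0.11 over the 11 and 0.12 over the 20. Of the 11 genes 1 was higher with psyllium by at least 1.5-fold, beside 4.03% of all genes past the filter. None was lower by as much, beside 2.42%. The higher gene was Gfra2, the receptor of neurturin, at 107 with the control diet and 171 with psyllium (1.60-fold). Neurturin itself, Nrtn, read 73.0 and 71.0, and Ret, the signalling partner of Gfra2, 104 and 94.2. Gfra1, the receptor of GDNF, differed by -0.23. Of receptors for cytokines of the interleukin-6 group, Il6st differed by 0.34, Osmr by 0.38 and Lifr by -0.07.

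A further list of 28 measured peptide precursors outside the lists above, also made afterwards, had 8 genes past the filter. None of these was past 1.5-fold, beside 4.03% higher and 2.42% lower over all genes past the filter. The median was 0.05 over the 8 and 0.14 over all 28. Below the filter 3 were at least 1.5-fold higher: Pnoc (17.6 and 34.7), Kng1 (5.02 and 7.61) and Nppa (40.1 and 60.3). Without the filter the share over all genes was 3.42%. Pnoc and Kng1 lay below the olfactory receptor reference on both arrays, and Nppa on the control array, so these differences rest on dim values. The brightest was the endothelin gene Edn1, at 524 and 412. Secretin, Sct, the hormone of the same peptide family as vasoactive intestinal peptide, read 207 and 165, and Gip of that family 125 and 134.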
